A study of Mus musculus with 2 samples.

Results

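Oxidative phosphorylation genes were examined in natural killer (NK) cells, as 2 sets chosen by gene name alone. The nuclear set took every gene whose symbol begins with Nduf, Uqcr, Sdha, Sdhb, Sdhc, Sdhd, Cox4i, Cox5, Cox6, Cox7, Cox8 or Atp5, and the mitochondrial set every gene whose symbol begins with mt-Nd, mt-Co, mt-Atp or mt-Cytb. The rule found 106 of the 16789 gene symbols of the count matrix, 93 in the nuclear and 13 in the mitochondrial set. No measured value entered the choice. Symbols are given in mouse spelling, except ATP5SL, which did not match the annotation and is spelled as in the matrix.

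The electron transport chain of the inner mitochondrial membrane passes electrons from NADH and succinate to oxygen and pumps protons, and ATP synthase uses the returning protons to make ATP. Complexes I, III and IV and ATP synthase are each built from subunits of both genomes, while complex II is wholly nuclear. Nuclear members are transcribed as single genes by RNA polymerase II, whereas the mitochondrial members are cut from long transcripts of the mitochondrial chromosome. NK cells kill virus-infected and tumour cells without prior priming, and respiration is one source of the ATP they use.

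RNA of single cells was sequenced and counted as UMIs (unique molecular identifiers) in cells sorted as lineage-negative, NK1.1-positive and CD49b-positive from C57BL/6 mice of 12 weeks, injected under the skin with MC38, a mouse colon carcinoma line. The labels give the line as MC38 or none. The mice were fed ad libitum or by a cyclic fasting diet, and the tag list gives 3 populations for each of spleen, bone marrow and tumour (ad libitum, fasted, refed) and a naive one for spleen. Bone marrow was flushed, spleen was strained, and only tumour was digested with enzymes. What naive stands for, the fasting schedule, the number of mice and whether mice were pooled are not stated in the labels used here. All 10 populations were marked with hashtags and captured together in 1 lane, so that each is 1 sample. Differences are thus between single samples and carry no p-value.

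The deposited hashtag calls gave 7479 single cells, and 5606 cells called doublets were left out. Spleen held 1804 ad libitum, 1391 fasted, 1476 refed and 818 naive cells, bone marrow 575, 136 and 337 for ad libitum, fasted and refed cells in turn, and tumour 46, 801 and 95. Summed UMIs ran from 571789 in the tumour ad libitum to 8855566 in the spleen ad libitum population, and median UMIs per cell from 3462 in fasted spleen to 7999 in refed tumour. The NK genes Ncr1, Klrb1c and Nkg7 were present in every population, with Ncr1 at 272 to 394 CPM (UMIs of a gene per 1000000 UMIs of the population) in tumour and 1043 to 1304 CPM in spleen. Markers of another cell type marked 360 of the single cells, 235 of them by T cell and 100 by monocyte or macrophage genes. All intervals below are 95% intervals for counting error only, and do not cover differences between mice or the spread between cells.

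The promoters of a few members are printed because most nuclear members were lowest in the fasted populations while a small group was highest there. RefSeq windows (GRCm38.p6, 250 bases before to 50 after the start) were found for 79 of the 93 nuclear members. In each sequence, 120 bases before the start are shown 5′ to 3′ in the direction of the gene, with matches to an NRF1 (GCGCATGC) or ETS (CCGGAAGT) word, on either strand, in capitals. The first 3 belong to members that were lowest under fasting in all 3 tissues, and the other 3 to members that were highest there. They are examples and do not stand for their groups. Each of the first 3 holds a marked word, but of 49 such promoters only 6 held the NRF1 and 3 the ETS word. A YY1 word, counted below, was in 10 of the 49 and is not marked.
Atp5k: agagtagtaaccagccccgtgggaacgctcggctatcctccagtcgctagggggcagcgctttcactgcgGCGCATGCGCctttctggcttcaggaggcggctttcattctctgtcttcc
Ndufa11: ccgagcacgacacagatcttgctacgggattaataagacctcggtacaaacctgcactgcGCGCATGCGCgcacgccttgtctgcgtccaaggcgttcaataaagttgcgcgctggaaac
Uqcr11: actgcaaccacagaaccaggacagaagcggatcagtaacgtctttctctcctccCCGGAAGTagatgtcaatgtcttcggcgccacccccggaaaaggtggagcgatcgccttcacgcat
Cox7a2l: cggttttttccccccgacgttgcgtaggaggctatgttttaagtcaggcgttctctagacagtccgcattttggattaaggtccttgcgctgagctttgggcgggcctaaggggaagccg
Uqcrh: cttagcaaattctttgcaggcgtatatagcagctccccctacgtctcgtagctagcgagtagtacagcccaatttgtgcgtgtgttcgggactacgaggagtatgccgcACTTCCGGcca
Ndufa6: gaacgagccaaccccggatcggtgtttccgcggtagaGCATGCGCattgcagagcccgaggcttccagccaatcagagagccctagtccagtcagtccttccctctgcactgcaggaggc
They lie at chr5:108434400-108434519, minus strand (Atp5k, ATP synthase), chr17:56717642-56717761, plus strand (Ndufa11, complex I), chr10:80406822-80406941, minus strand (Uqcr11, complex III), chr17:83514334-83514453, minus strand (Cox7a2l), chr4:116075071-116075190, minus strand (Uqcrh, complex III) and chr15:82354292-82354411, minus strand (Ndufa6, complex I).

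NRF1 and the ETS factor GABP are known regulators of nuclear respiratory genes, and YY1 is another factor that binds many of their promoters. Over the whole 300-base windows the NRF1 word was in 12 of 79 member promoters (15.2%) and in 2.8% of all 27025 promoters. The ETS word was in 5 members (6.33%) and in 4% of all promoters. A YY1 word (AAGATGGC, either strand) was in 11 members (13.9%) and in 2.88% of all promoters. Matches that overlap were counted once per promoter, and a match is a string of letters and not a measured binding site. Of 49 promoters of members lowest under fasting in all tissues, 6 held the NRF1, 3 the ETS and 10 the YY1 word. Of the 5 promoters of members highest under fasting in all tissues, 1 held each.

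Summed over its genes, the nuclear set took a smaller share of UMIs in the fasted population of each tissue, and the mitochondrial set did not. In spleen the nuclear share was 2.42% in ad libitum, 2.14% in fasted, 2.39% in refed and 2.36% in naive cells. In bone marrow it was 2.64%, 2.02% and 2.60% for ad libitum, fasted and refed cells in turn. In tumour it was 2.31%, 2.17% and 2.44%. The fasted value was the lowest of its tissue in all 3 tissues, and the widest interval among the 10 shares, that of tumour ad libitum cells, ran from 2.27% to 2.35%.

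The mitochondrial share in spleen was 2.94% in ad libitum, 3.19% in fasted, 3.29% in refed and 3.22% in naive cells, so that the ad libitum population was lowest. In bone marrow it was 4.12%, 4.41% and 4.32% in the same order without naive, above every spleen and tumour value. In tumour it was 2.28%, 2.55% and 2.59%, below every other value. The mitochondrial shares of the tissues did not overlap, while the nuclear shares of the tissues overlapped. In these sums the number of nuclear UMIs per mitochondrial UMI was lowest under fasting in each tissue. It was 0.67 against 0.82, 0.73 and 0.73 in spleen, and 0.46 against 0.64 and 0.60 in bone marrow. In tumour it was 0.85 against 1.01 and 0.94. In bone marrow the order changed among cells of like depth. From 1500 to 7500 UMIs, fasted to ad libitum log2 ratios by bin were -0.67, -0.29, -0.29 and -0.32 for the mitochondrial share. For the nuclear share they were 0.005, -0.06, -0.17 and -0.20. From 7500 to 12000 UMIs they were 0.004 (mitochondrial) and -0.24 (nuclear).

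**Figure D1:**
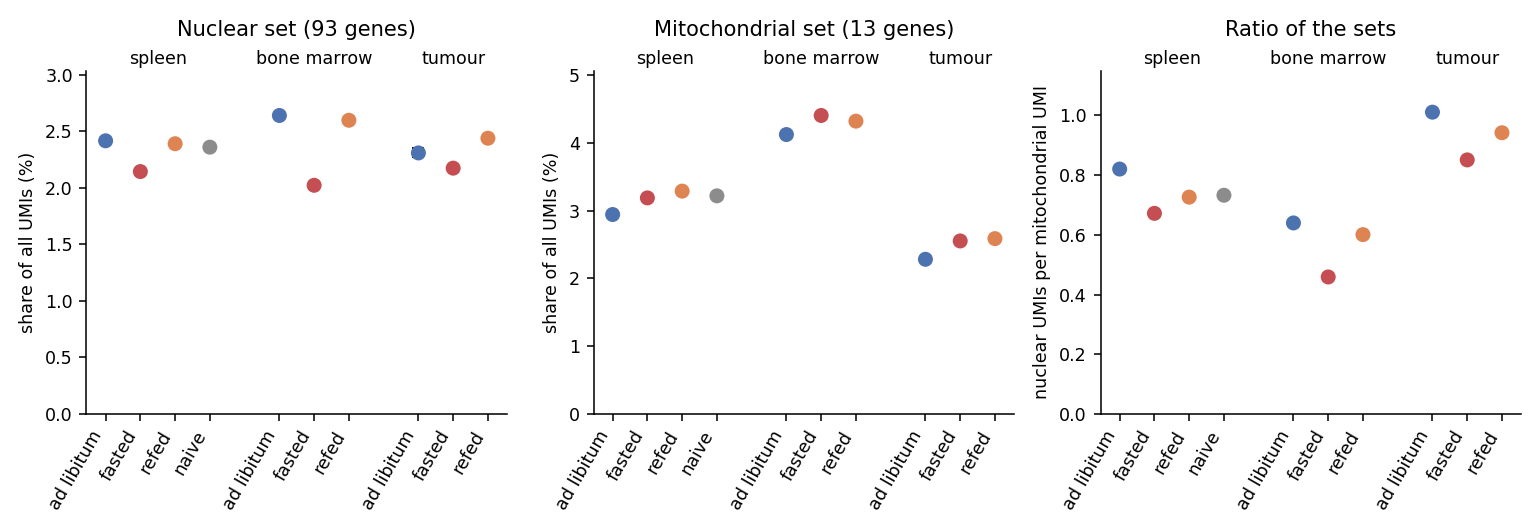
Shares of all UMIs taken by the nuclear set (left) and the mitochondrial set (middle) in percent, and nuclear UMIs per mitochondrial UMI (right), in the 10 populations; points are sums over the single cells of 1 population and bars 95% counting intervals (none on the ratio). The fasted point is lowest of its tissue on the left and right, and the 3 tissues separate in the middle.

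Per gene, a member is called measured where it reached 20 CPM in at least 1 of the populations compared, and differences are log2 ratios of CPM + 5. In spleen 77 of 84 measured nuclear members were lower in fasted than in ad libitum cells, where 48.8% of all 5432 genes were lower. The median member had a log2 ratio of -0.19, beside 0.01 over all genes. Of the members, 26 were lower by at least 1.2-fold, which 8.49% of all genes were, and 2 were higher by that much (9.13% of all genes). Genes at 100 CPM or more had a median of -0.04, with 58.3% lower. Cytosolic ribosomal protein genes, another abundant group, had a median of 0.05.

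The lower level held across complexes in spleen. All 15 ATP synthase members were lower, with a median of -0.21, and so were all 7 core subunits of complex I, which carry its electron path, with a median of -0.09. Of the 29 accessory complex I subunits 28 were lower (median -0.22), and all 5 measured complex I assembly factors with Ndufaf names were lower (median -0.33). ATP5SL, another complex I assembly factor that was counted apart from them, was higher, at 29.7 against 22 CPM. In complex III 6 of 8 and in complex IV 11 of 12 measured members were lower, with medians of -0.14 and -0.25. The 4 lowest ratios belonged to Ndufaf8, a complex I assembly factor, at -0.56 (interval -0.74 to -0.38), and to the complex I subunits Ndufb2 at -0.46 (-0.65 to -0.27), Ndufc2 at -0.42 (-0.56 to -0.28) and Ndufb6. Ndufaf8 stood at 89.7 CPM in ad libitum, 59.3 in fasted, 75.2 in refed and 78.4 in naive spleen. With naive cells included, 70 of 85 measured nuclear members were lowest in the fasted of the 4 spleen populations, as were 32.1% of 6439 genes.

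The difference was present within most of the deposited clusters of spleen cells. Summed over the set, fasted against ad libitum spleen cells gave log2 ratios of -0.10 in cluster 1, -0.22 in cluster 2, -0.16 in cluster 3, -0.13 in cluster 4, -0.18 in cluster 5, -0.11 in cluster 6 and -0.16 in cluster 7. Cluster 9, whose cells were the shallowest, gave 0.02 with an interval from -0.10 to 0.13. Fasted spleen cells had fewer UMIs, a median of 3462 against 4209.5. They had a higher share of Gm42418, AY036118 and Lars2, 2.62% against 2.17% of UMIs. These 3 are called ribosomal RNA-like here, although Lars2 itself codes for a protein. Between 2500 and 12000 UMIs the nuclear share was lower in fasted cells in each of 4 depth bins, with log2 ratios of -0.13, -0.15, -0.19 and -0.15, and between 1500 and 2500 UMIs the ratio was -0.01.

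In bone marrow the nuclear set differed more. Of 84 measured members 74 were lower in fasted than in ad libitum cells, beside 52.3% of 5662 genes, and 65 were lower by at least 1.2-fold, beside 31.5% of genes. The median was -0.42, beside -0.03 over all genes, -0.14 over genes at 100 CPM or more and 0.09 over cytosolic ribosomal protein genes. All 15 ATP synthase members were lower (median -0.44), with 28 of 29 accessory complex I subunits (-0.42), 7 of 8 members of complex III (-0.34), 11 of 12 of complex IV (-0.54) and 3 of 4 of complex II (-0.46).

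Ndufab1, an acyl carrier protein that is also a complex I subunit, was at 184 CPM in ad libitum, 80.2 in fasted and 189 in refed bone marrow cells. Its log2 ratio of -1.15 (-1.53 to -0.79) was the lowest of the members, from 59 UMIs in the fasted population. Atp5g1, which encodes a c subunit of the ATP synthase rotor, was at 414, 193 and 385 CPM, with a ratio of -1.08 (-1.33 to -0.84). Its fasted level was below both other bone marrow levels without overlap of the intervals, and also below those of ad libitum, refed and naive spleen, while its interval overlapped that of fasted spleen at 218 CPM. The other members among the 4 lowest were Atp5k at -0.84 and Atp5b, the catalytic beta subunit, at -0.84.

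Bone marrow cells of the populations also differed in make-up. Dividing cells, with at least 2 UMIs over 10 cell-cycle genes, were 39.7% of ad libitum, 17.6% of fasted and 34.7% of refed cells. Without them 70 of 84 nuclear members were still lower and the median was -0.25. With equal weights over bins of UMIs per cell it was -0.20 and 59 of 84 were lower. The medians per cell were 7137 UMIs in ad libitum and 4782.5 in fasted cells. The ribosomal RNA-like share was 1.79% in ad libitum, 2.70% in fasted and 1.79% in refed cells. Neutrophil markers summed to 10530 CPM in the fasted population, where 1 cell carried that mark, against 2437 CPM in ad libitum cells, where 9 did. Without cells that carry markers of other types 73 of 84 members were lower, with a median of -0.41. Within cluster 2, led by Cd3d, Cd3g, Cd3e and Il7r and the only one with at least 50 cells in both populations (54 fasted, 189 ad libitum), the summed ratio was -0.25 (-0.29 to -0.22). The part of dividing cells in the larger bone marrow difference was not tested beyond these values.

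In tumour 61 of 83 measured members were lower in fasted than in ad libitum cells, beside 49.3% of 5225 genes, with a median of -0.11. By at least 1.2-fold 19 were lower, beside 24.7% of genes, and 7 higher, beside 27.2%. The lowest ratios were those of the complex I assembly factors Ndufaf7 (-0.73) and Ndufaf2 (-0.57), of Ndufv3 and of Atp5j, and the highest those of Sdhaf1 (0.75), Ndufv1, Ndufa6 and Cox7a2l. In thinned cells Ndufaf2 had 0.66 and Atp5j 0.14, against the direction in the sums. The ad libitum population held only 46 cells, and the counting intervals of 17 members lay below 0 and of 8 above. With the same weight for every cell 34 of 84 members were lower and the median was 0.06, and with the highest cell of each gene left out 28 of 83 were lower and the median was 0.09. The ribosomal RNA-like share was 1.87% in ad libitum, 1.73% in fasted and 1.52% in refed cells. Cluster 11, whose cells had a median of 26877 UMIs, made up 19.6% of the ad libitum, 6.37% of the fasted and 26.3% of the refed cells. The direction of the nuclear set in this comparison therefore changed with the weight given to single cells.

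**Figure D2:**
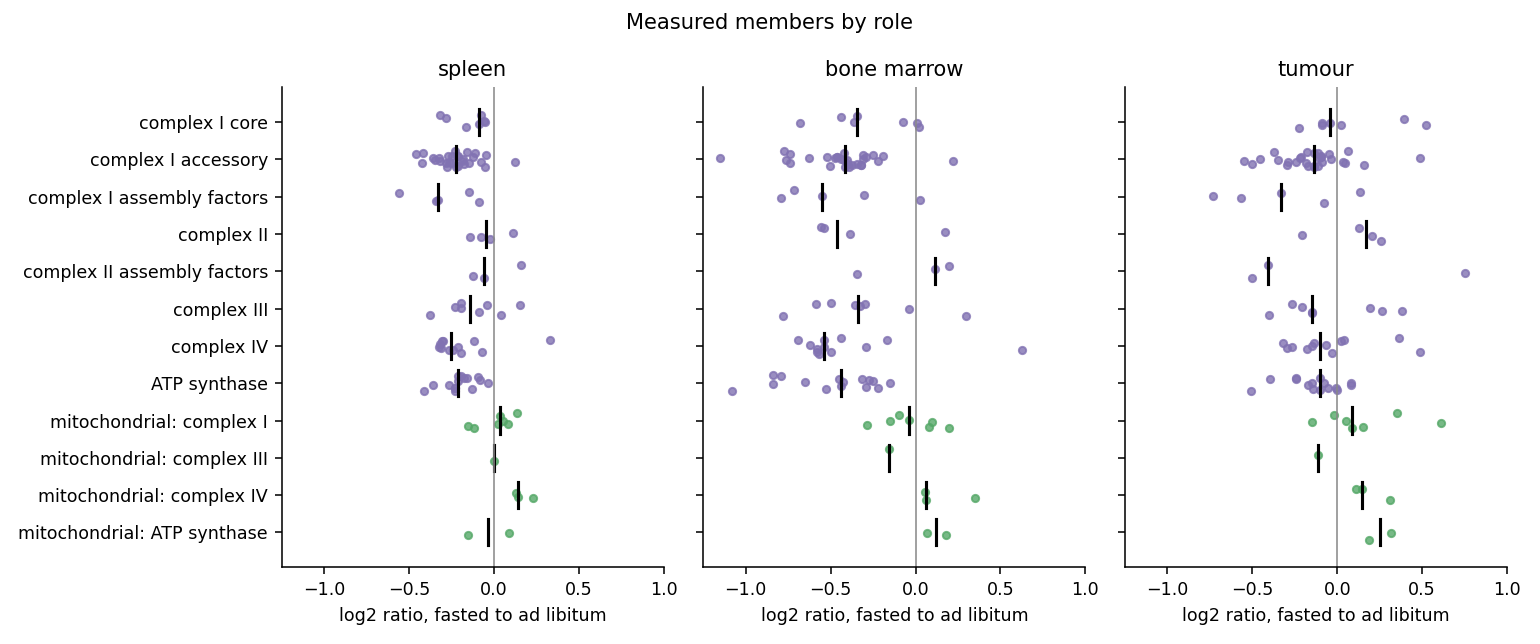
Log2 ratio of CPM + 5, fasted to ad libitum, for each measured member (points, shifted vertically at random) by role in spleen, bone marrow and tumour; bars are medians over the members of a role. Nuclear roles (purple) lie mostly left of 0 in spleen and bone marrow, and the mitochondrial roles (green) lie around or right of 0.

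Refed populations were compared with the same fasted populations, so that the 2 sets of ratios are not independent. The nuclear set was higher in refed cells in each tissue. In spleen 74 of 84 measured members were higher, beside 43.4% of 5418 genes, with a median of 0.18. In bone marrow 77 of 85 were higher, beside 47.2% of 5568 genes, with a median of 0.39, and in tumour 69 of 82, beside 51.9% of 5125 genes, with a median of 0.17. The members lower in refed cells were 10 in spleen (56.6% of genes), and by at least 1.2-fold 3 in bone marrow (30.4%) and 4 in tumour (20.6%), where 22 were higher by as much (21.2%). Atp5g1 had the highest ratio in spleen, 0.44 (0.34 to 0.54), from 218 to 297 CPM. In tumour the highest was Atp5g3, another gene of the same rotor subunit, from 233 to 324 CPM, with a ratio of 0.47 that was -0.01 over depth bins. Under equal weights over depth bins the tumour median was 0.05, with 47 of 84 members higher, over bins that held 38 refed cells. Other values moved with these. The heat shock gene Hspa1a was higher in refed than in fasted cells, with log2 ratios of 1.41 for spleen, 1.25 for tumour and 1.43 for bone marrow. It is 1 of a list of dissociation genes whose other members did not all go that way. Lower in refed cells were 3 of 8 in spleen, 5 of 8 in bone marrow and 6 of 9 in tumour. Of all genes 56.6%, 52.8% and 48.1% were lower. Jun of that list had ratios of -0.15, -0.46 and -0.61 in the same order. The 3 ribosomal RNA-like genes were lower in refed cells of each tissue, with medians of -0.20 for spleen, -0.59 for bone marrow and -0.43 for tumour. Dividing cells were 34.7% of refed and 18.85% of fasted tumour cells. Without dividing cells 73 of 85 nuclear members were higher in refed spleen, 70 of 84 in bone marrow and 65 of 83 in tumour. The part of the other values was not tested.

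Across tissues, 55 of 85 measured nuclear members had their lowest level in the fasted population of all 3 tissues, a pattern of 15% of 6439 genes, and 5 had their highest level there in all 3, as had 16.4% of genes. The 5 were ATP5SL, Cox7a2l, Ndufa6, Sdhaf1 and Uqcrh. In tumour both patterns rest on sums over 46 ad libitum cells. There the members lower in fasted than in ad libitum cells went from 61 to 28 with the highest cell of each gene left out. Of the mitochondrial members 1 followed each pattern, and mt-Co1 was the one highest under fasting.

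Cox7a2l, which encodes a COX7A-family protein, stood at 412.5 CPM in ad libitum, 520 in fasted, 412 in refed and 421 in naive spleen. In bone marrow it was at 362, 562 and 360 CPM and in tumour at 287, 404 and 298 CPM, for ad libitum, fasted and refed cells in turn. The fasted level was highest in each tissue, with intervals that did not overlap those of the other levels of that tissue. The ratios to ad libitum were 0.33 (0.26 to 0.40) in spleen, 0.63 (0.47 to 0.78) in bone marrow and 0.49 (0.26 to 0.72) in tumour. It was higher in fasted cells in 7 of 8 spleen clusters. In bone marrow the ratio was 0.47 without dividing cells and 0.41 in cells thinned to 1500 UMIs. In tumour it was 0.04 in thinned cells and -0.09 with equal weights over clusters. Those weights covered only clusters 7 and 11, with 105 of 801 fasted and 25 of 46 ad libitum cells.

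Uqcrh, the hinge protein of complex III, was at 832, 927, 808 and 801 CPM in ad libitum, fasted, refed and naive spleen, at 764, 939 and 745 CPM in bone marrow and at 659, 792 and 707 CPM in tumour. The fasted level was again the highest of each tissue. Ndufa6, an accessory complex I subunit of the LYR family, was at 315, 344, 302 and 315 CPM in spleen, 264, 308 and 269 in bone marrow and 185, 262 and 187 in tumour. Its ratio in tumour was 0.49 and turned to -0.20 with equal weights over clusters 7 and 11 alone. ATP5SL, whose protein is named after ATP synthase but is a complex I assembly factor (RefSeq symbol Dmac2), was at 22, 29.7, 20.1 and 24.2 CPM in spleen and 19.1, 32.6 and 19.6 in bone marrow. In tumour it was at 15.7, 17.3 and 15 CPM, under the minimum level of 20 CPM, and the intervals of both ratios to the fasted level included 0 (-0.68 to 0.91 and -0.72 to 0.40). Sdhaf1, a complex II assembly factor, was at 30, 34.2 and 26.1 CPM in ad libitum, fasted and refed spleen and at 33.2, 59.4 and 32.3 in tumour. In thinned tumour cells its ratio of refed to fasted turned from -0.79 to 0.50. In bone marrow it was at 31, 34 and 27.8 CPM with overlapping intervals. These members rest on few UMIs in bone marrow, 24 for ATP5SL and 25 for Sdhaf1 in the fasted cells.

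**Figure D3:**
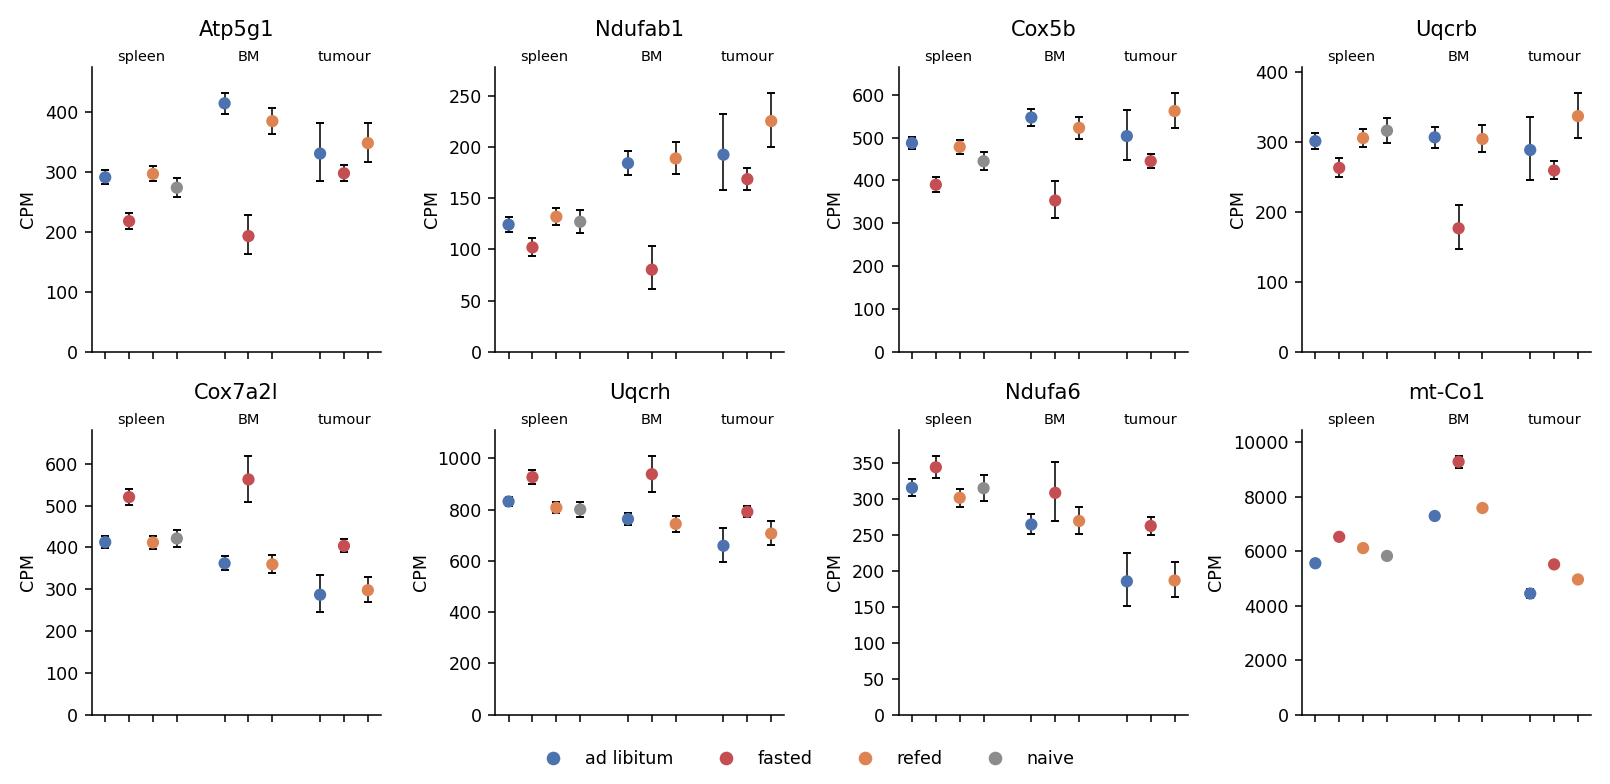
CPM of 7 nuclear members and mt-Co1 in the 10 populations, with 95% counting intervals; BM is bone marrow and each axis starts at 0. In the upper row the fasted point (red) is lowest of each tissue, and in the lower row it is highest.

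Complex II, which also works in the citric acid cycle, had a median of -0.05 between fasted and ad libitum spleen, with 3 of 4 members lower. Its flavoprotein subunit Sdha was at 82, 89.2, 85.4 and 77.1 CPM in ad libitum, fasted, refed and naive spleen, with a ratio of 0.11 (-0.05 to 0.27). Its iron-sulphur subunit Sdhb was at 142, 129, 138 and 145 CPM. The membrane anchors Sdhc and Sdhd were at 50.9 to 54 and 82.1 to 90.5 CPM in spleen. In fasted bone marrow Sdhb, Sdhc and Sdhd were lower than in ad libitum cells, with Sdhd at 78.8 against 118 CPM, and Sdha was at 95.1 against 83.9 CPM.

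The most abundant nuclear members by mean CPM were Cox8a, Atp5e, Cox4i1, Uqcrh, Atp5h, Cox7c, Cox6c and Atp5l. Cox8a, a small complex IV subunit, had 1241, 1143, 1212 and 1218 CPM in the 4 spleen populations in the order above, and 1219, 993 and 1191 in bone marrow, where the ratio of fasted to ad libitum turned to 0.04 with equal weights over depth bins. Cox4i1, the main isoform of the largest nuclear complex IV subunit, had 1016, 967, 975 and 994 CPM in spleen, a small difference next to that of Cox5b, which had 488, 390, 478.5 and 445 CPM. In pairs of isoforms, the second form was absent or scarce. Cox4i2 had no UMI in any population, Cox6b2 stayed at or under 5.43 CPM and Cox7a1 at or under 5.51 CPM. Cox6a2 reached 33.6 CPM in refed bone marrow, but up to 46.7% of its UMIs in a population came from 1 cell. Of the rotor genes, Atp5g2 differed less between fasted and ad libitum spleen, at 462 and 472 CPM, than Atp5g1. In all, 85 of the 93 nuclear members reached 20 CPM in a population, and Atp5s, Cox4i2, Cox6b2, Cox7a1, Ndufaf1, Ndufaf5, Ndufaf6 and Sdhaf3 did not.

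The mitochondrial members were all measured. In spleen 10 of 13 were higher in fasted than in ad libitum cells, beside 51.2% of genes, and 0 passed 1.2-fold in either direction. The median was 0.05 and the sum had a ratio of 0.12. All 3 complex IV members were higher, with mt-Co1 at 5555, 6524, 6111 and 5823 CPM in ad libitum, fasted, refed and naive cells, mt-Co2 at 4420, 4833, 4820 and 4861, and mt-Co3 at 4806, 5296, 5417 and 5319. The ATP synthase member mt-Atp6 was at 6152, 6533, 6843 and 6531 CPM. The complex III member mt-Cytb, at 2127, 2130, 2476 and 2386 CPM, was level between ad libitum and fasted cells. Among complex I members mt-Nd1 was at 1264, 1311, 1445 and 1428, mt-Nd2 at 1766, 1812, 1991 and 2038, mt-Nd4 at 1889, 2000, 2156 and 2159, mt-Nd4l at 351.5, 358, 413 and 421 and mt-Nd5 at 429, 472, 492 and 470 CPM. Lower under fasting were mt-Nd3 (425 and 392 CPM), mt-Nd6 (33 and 29.2) and mt-Atp8 (221 and 198). With equal weights over depth bins 8 of 13 were lower and the median was -0.03.

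Across the 4 spleen populations it was the ad libitum one that stood lowest for 10 of 13 mitochondrial members, as it did for 17.6% of all genes. Against naive cells all 13 were lower, with a median of -0.17 and ratios from -0.26 to -0.07, where 53% of 5382 genes were lower. Of the nuclear members 62 of 84 were higher than in naive cells, beside 47% of genes, with a median of 0.03 and 0 past 1.2-fold (3.81% of genes). The mitochondrial set was lower in ad libitum than in naive cells within each of clusters 1 to 5, with summed ratios of -0.13, -0.06, -0.15, -0.19 and -0.17.

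In bone marrow the mitochondrial set showed no stable difference with diet. Of 13 members 8 were higher in fasted than in ad libitum cells, beside 47.7% of genes, but 1 of 13 in thinned cells and 0 of 13 with equal weights over depth bins, where the median was -0.46. Cells with over 10% mitochondrial UMIs made up 15.7% of ad libitum, 18.4% of fasted and 16.9% of refed cells. mt-Co1 had the largest difference, 7289, 9278 and 7581 CPM in ad libitum, fasted and refed cells, a ratio of 0.35 (0.31 to 0.39) that turned to -0.10 over depth bins. Between refed and fasted bone marrow 7 of 13 were higher. Between refed and fasted spleen 11 of 13 and in tumour 9 of 13 were higher, with medians of 0.14 and 0.05. In tumour 10 of 13 were higher in fasted than in ad libitum cells, beside 50.7% of genes, and 5 of 13 with the same weight per cell.

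Genes of the mitochondrial chromosome share bases in 4 places in the annotation, among them 43 between mt-Atp8 and mt-Atp6 and 7 between mt-Nd4l and mt-Nd4. mt-Nd6 is on the other strand from the rest and shares 14 with mt-Nd5. The level of mt-Atp8 and mt-Nd4l is uncertain to that extent, since the labels used here do not state how such reads were treated. The mitochondrial members also share transcripts and are not independent of each other. The annotation names a pseudogene of 5 nuclear members, Atp5c1, Atp5k, Atp5l, Ndufab1 and Uqcrh, whose reads could be split with it.

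Bone marrow and tumour cells lay on either side of spleen cells for the mitochondrial set. In 12 of 13 members all 3 bone marrow populations lay above all other populations, a pattern of 4.15% of genes, and for 12 of 13 all 3 tumour populations lay below all others, a pattern of 24.3% of genes. No member of either set had all bone marrow populations below all others (4.94% of genes). Against spleen, all 13 were higher in bone marrow in ad libitum cells (median 0.48, beside 43.6% of 5597 genes higher) and in fasted cells (0.43, beside 40.6% of 5671). In cluster 2, which holds 189 ad libitum bone marrow and 163 ad libitum spleen cells, the summed ratio was 0.16 (0.14 to 0.18), and in cluster 6 it was 0.12 (0.09 to 0.14). Of ad libitum cells 15.7% in bone marrow and 4.49% in spleen had over 10% mitochondrial UMIs.

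In tumour all 13 were lower than in spleen, with a median of -0.34 in ad libitum cells, where 60.9% of 5684 genes were lower and 11 members but 45.2% of genes were so by at least 1.2-fold, and of -0.31 in fasted cells, where 64.9% of 5696 were. Scaled by TMM factors, 11 of 13 were lower in ad libitum cells with a median of -0.18, and 9 of 13 in fasted cells with a median of -0.04. For example, mt-Nd2 was at 965, 1234 and 1334 CPM in tumour, 1766 to 2038 in spleen and 2212 to 2486 in bone marrow. The direction was the opposite in cluster 7, which was led by genes that include the macrophage gene Cd14 and was the only one with at least 50 fasted cells of both tissues (54 tumour, 105 spleen). There the summed mitochondrial ratio was 0.48 (0.43 to 0.52). In ad libitum cells mt-Co1 had a ratio of -0.32, which turned to 0.13 with the same weight per cell. Tumour cells alone were digested with enzymes, and summed dissociation genes such as Fos and Jun were at 2302 to 3438 CPM in tumour, 1928 to 2219 in spleen and 1215 to 1653 in bone marrow. The fasted population held the highest of these sums in each tissue, at 3438 CPM in tumour, 2219 in spleen and 1653 in bone marrow. The part of these genes in the differences with diet was not tested. Tissue and preparation cannot be told apart.

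The nuclear set did not separate the tissues. Ad libitum bone marrow had 65 of 84 members above spleen (median 0.14) and 19 below, beside 56.4% of genes, but 40 of 84 above with the same weight per cell and 15 of 84 over depth bins. Fasted bone marrow had 61 of 84 below spleen, beside 59.4% of genes (median -0.07), 11 of them by at least 1.2-fold (29.6%). Of 84 members in ad libitum tumour 48 were lower than in spleen and 36 higher, beside 39.1% of genes higher. Of 83 in fasted tumour 47 were higher, beside 35.1% of genes, 15 of them by at least 1.2-fold (21.3%). With TMM factors the all-gene median shifted by 0.15 and 0.24 in these tumour comparisons, and 55 of 84 and 74 of 84 members were then higher in tumour. The fasted count turned the other way with 28 of 83 higher with the same weight per cell, 31 of 84 in thinned cells and 21 of 84 over depth bins. Totals without ribosomal protein and mitochondrial genes shifted the all-gene median by 0.11 in ad libitum and 0.13 in fasted bone marrow against spleen. For tumour against spleen the shifts with those totals were 0.10 in ad libitum and 0.12 in fasted cells.

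Fewer nuclear members than genes in general had levels that kept the tissues apart, at 3.53% above and 10.6% below all others in tumour. Above all other populations in tumour were Atp5d, the delta subunit of ATP synthase (575 to 647 CPM, against 380 to 510 elsewhere), Uqcrq of complex III (338 to 405, against 215 to 320) and Ndufaf2, as were 10.8% of genes. In thinned ad libitum cells Ndufaf2 was lower in tumour than in spleen, at -0.42. Below all others in tumour were 9, beside 24.3% of genes, namely Atp5h, ATP5SL, Cox6a2, Ndufa3, Ndufa4, Ndufa6, Ndufb10, Ndufs1 and Sdha. These are orders of levels. Intervals of a tumour level overlapped those of fasted bone marrow for Cox6a2, Ndufa3, Ndufb10, Ndufs1 and Sdha, among others, with Ndufs1 at 28 to 28.5 CPM in tumour and 32.6 in fasted bone marrow (24 UMIs). Atp5h, a stalk subunit of ATP synthase, was at 605 to 640 CPM in tumour and 730 to 922 elsewhere. Spleen was below all others for Atp5g2, Ndufa12 and Ndufs3, 3.53% of the 85 measured members beside 5.26% of genes.

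Ndufa4, first described as a complex I protein and now known as a complex IV subunit, showed the lowest ratio of the nuclear set between tumour and spleen. It stood at 234 CPM in ad libitum, 303 in fasted and 295 in refed tumour cells. In spleen it was at 658, 525, 657 and 675 CPM and in bone marrow at 725, 488 and 719 CPM. The tumour levels lay below all others with no overlap of intervals, and fasting was lowest in spleen and bone marrow but not in tumour. The ratio of tumour to spleen was -1.47 (-1.72 to -1.23) in ad libitum and -0.78 (-0.87 to -0.70) in fasted cells. It stayed negative under the alternatives run, at -0.74 in thinned ad libitum cells and at -0.52 with TMM factors and -0.34 with equal cluster weights in fasted cells.

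AA467197, also called Nmes1, is a paralogue of Ndufa4 that can take its place in complex IV. It lies outside the name rule and was looked up after the values of Ndufa4 were seen. It was at 658, 489 and 547 CPM in ad libitum, fasted and refed tumour cells, and at 13.5 to 23.3 CPM in spleen and 4.08 to 8.88 CPM in bone marrow. A UMI of it was found in 60.9%, 43.7% and 61.1% of the tumour cells, in 3.25% to 5.26% of spleen cells and in 2.21% to 4.35% of bone marrow cells, which had median depths within the range of the tumour populations or below it. The tumour levels lay above all others by a wide margin, in the opposite order of tissues to Ndufa4.

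Within clusters that held both tissues the pair differed the same way in most. In cluster 1 Ndufa4 was at 257 CPM in 30 tumour cells and 620 in 1154 spleen cells, and AA467197 at 522 and 23.3. In cluster 8 Ndufa4 was at 332 in 231 tumour and 644 in 31 spleen cells, with AA467197 at 348 and 5.07. Cluster 10, led by neutrophil and macrophage genes, had Ndufa4 at 245 in tumour, 808 in spleen and 879 in bone marrow cells. In cluster 6 Ndufa4 was not lower in tumour, at 595 CPM (440 to 786) against 415 in spleen, and in cluster 9 it was at 320 in both. In tumour fasted cells thinned to 1500 UMIs, the 187 with an AA467197 UMI had Ndufa4 at 225 CPM (173 to 287) and the 559 without at 304 (268 to 344). Those intervals overlapped, as did those of 324 and 373 CPM in refed and of 311 and 471 CPM in ad libitum tumour cells. In spleen Ndufa4 was higher in the 28, 21 and 21 ad libitum, fasted and naive cells with an AA467197 UMI. Its levels there were 762, 698 and 762 CPM against 663, 564 and 643, again with overlapping intervals. In the 22 refed spleen cells with such a UMI it was lower. It was at 333 CPM (166 to 596) against 669 (633.5 to 705), without overlap.

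**Figure D4:**
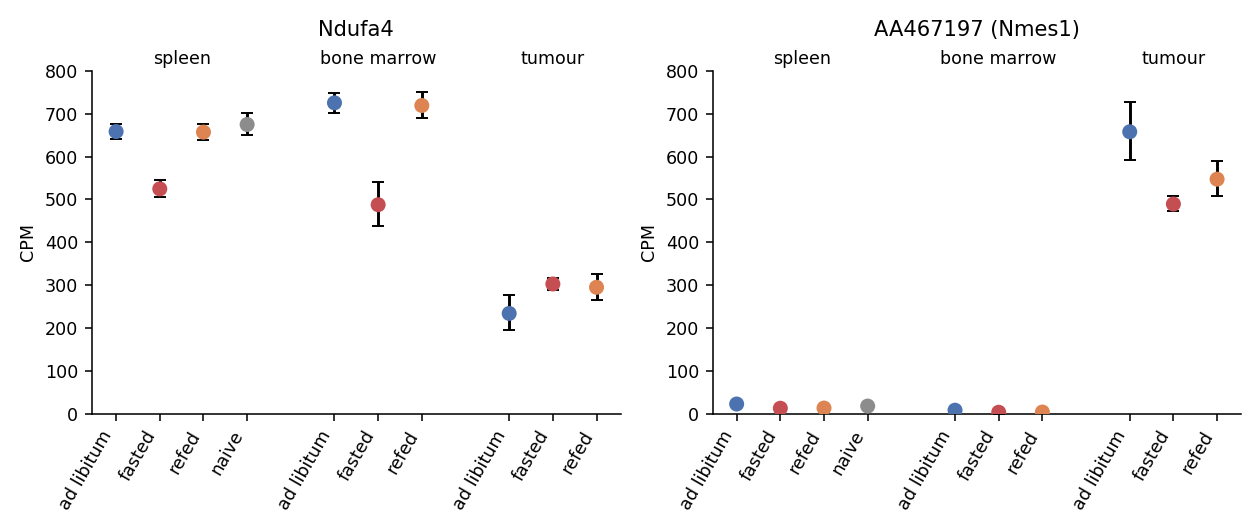
CPM of Ndufa4 (left) and AA467197 (right) in the 10 populations, with 95% counting intervals. The 3 tumour populations are lowest for Ndufa4, at 234 to 303 CPM, and highest for AA467197, at 489 to 658 CPM.

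The deposited clusters ordered the sets in different ways. They were made from the genes of these same cells, so that their levels are a description. The mitochondrial share was 12.7% in cluster 6 and 8.3% in cluster 9, and from 2.3% to 3.8% in the other 10. In cluster 6 cells over 10% mitochondrial UMIs were 315 of 412, and its leading genes included Mki67 and Top2a beside mt-Atp6, mt-Co2 and mt-Co3. The nuclear share was lowest in clusters 9 and 6, at 1.22% and 1.59%, and highest in clusters 10 and 5, at 2.90% and 2.59%. All 13 mitochondrial members were highest in cluster 6, as were 13.6% of 7139 genes, and 67 of 85 nuclear members were lowest in cluster 9, as were 17.2% of genes. Of nuclear members 51 were highest in cluster 10, as were 17.6% of genes.

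Depth ran along with these shares. Median UMIs per cell were 1399 in cluster 9, 2205 in cluster 6, 16287 in cluster 10 and 26877 in cluster 11. Cluster 10 was led by the neutrophil and macrophage genes S100a9, S100a8 and Lyz2. Its Ncr1 level of 483 CPM was below that of clusters 1 to 6 and above that of clusters 0, 8 and 11 (384, 322 and 360 CPM). It also had the cell-cycle genes Mki67 at 480.5 and Top2a at 829 CPM, against 12 to 53.5 and 41.8 to 111 CPM in clusters 0 to 5. Cluster 11, from tumour and led by the granzyme genes Gzmc and Gzmd, had 2.49% nuclear and 2.46% mitochondrial UMIs, a ratio of 1.01, against 0.13 in cluster 6. Within populations the 2 shares ran in opposite directions over cells, with Spearman coefficients from -0.61 in refed bone marrow to -0.08 in tumour ad libitum cells. The shares also ran with UMIs per cell, with coefficients for the nuclear share from 0.16 in fasted spleen to 0.61 in ad libitum bone marrow. For the mitochondrial share they ran from -0.38 in refed bone marrow to 0.02 in naive spleen. Both shares are also taken of the same total, and the part of depth or of that total was not tested.

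**Figure D5:**
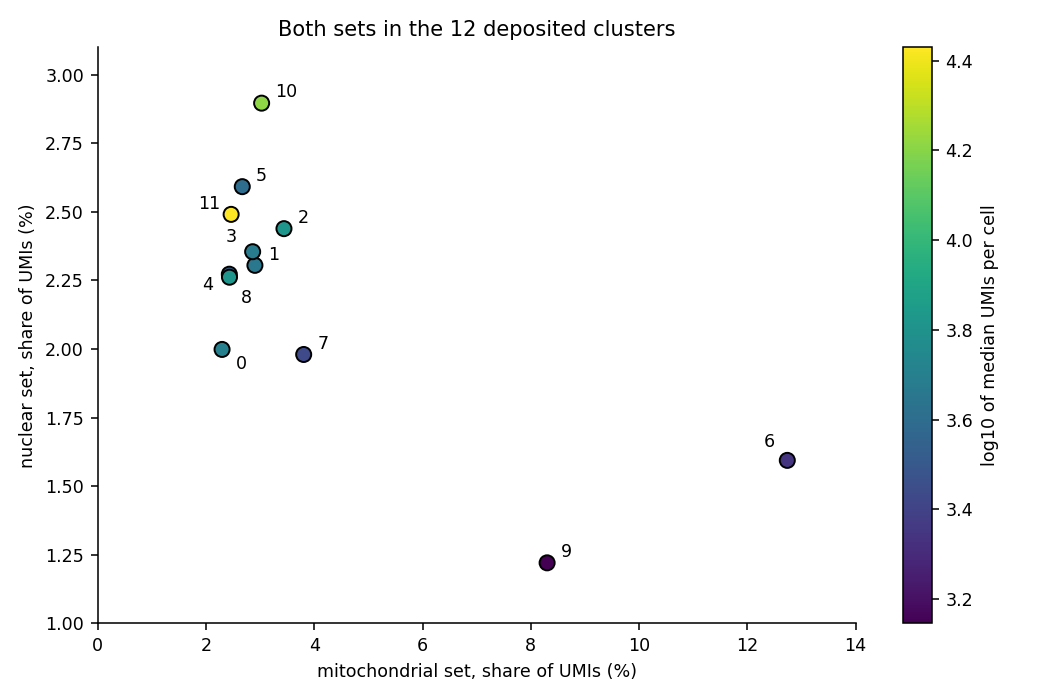
Share of UMIs of the nuclear set (vertical, percent, axis from 1) against the mitochondrial set (horizontal, percent) in the 12 deposited clusters, coloured by the log10 of median UMIs per cell and numbered. Clusters 6 and 9 lie apart with a high mitochondrial and low nuclear share, at 12.7% and 1.59% and at 8.3% and 1.22%.

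Other genes of mitochondrial and sugar metabolism were read beside the sets. Of 24 measured respiratory chain genes outside the name rule, 17 were lower in fasted than in ad libitum spleen, beside 48.8% of all genes, with a median of -0.10, and 18 of 26 in bone marrow, beside 52.3%, with a median of -0.24. Cycs, which encodes cytochrome c, the carrier between complexes III and IV, was at 180, 121 and 171 CPM in ad libitum, fasted and refed spleen and at 237, 113 and 236 in bone marrow. The complex III assembly factor Uqcc2 was at 153, 97.4 and 151 CPM in spleen. Oxa1l, an insertase of the inner membrane, was higher in fasted spleen, at 30.8 against 22.6 CPM. Citric acid cycle and pyruvate dehydrogenase genes were lower in 10 of 16 in spleen (median -0.07) and 14 of 16 in bone marrow (-0.35), beside the same shares of all genes.

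Of the glycolysis genes 8 of 11 were lower in fasted than in ad libitum spleen (median -0.19, beside 48.8% of all genes), 10 of 12 in bone marrow (-0.60, beside 52.3%) and 12 of 14 in tumour (-0.90, beside 49.3%). The tumour counts rest on the 46 ad libitum cells in which the direction of the nuclear set changed with the weight of single cells, and the glycolysis genes were not recomputed with other weights. Gapdh was at 458, 348 and 465 CPM in ad libitum, fasted and refed spleen and at 2069, 1102 and 1859 CPM in tumour. All 15 measured glycolysis genes were higher in refed than in fasted tumour cells, beside 51.9% of all genes, with a median of 0.74. Of genes that maintain or express mitochondrial DNA 4 of 7 measured were lower in fasted spleen, near the 48.8% of all genes, with a median of -0.04. Of the regulators, Esrra had a ratio of 0.30 (0.04 to 0.56) in fasted against ad libitum spleen. Gabpa, a subunit of GABP, had 0.26 (-0.01 to 0.52) and Nrf1 -0.22 (-0.46 to 0.02), with intervals that include 0. In bone marrow Gabpa had -0.01 and Nrf1 0.25, and in tumour Nrf1 had 0.17, with intervals that also include 0. In tumour Myc had 1.08 (0.47 to 1.74) and Hif1a -0.70 (-1.04 to -0.34), against the 46 ad libitum cells.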

How the data were processed

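The RNA and hashtag libraries of 1 pool were used. The authors deposited UMI counts for each cell and gene, made with seqc per the labels' protocols, and mapped to mm10, as the submitters' processing notes give it. The labels used here do not say how hashtags were called or cells clustered. Columns of repeated symbols were summed and doublets and 33 unclassified cells left out. No other column or cell was removed, and no doublet caller was run besides. Loci came from GENCODE M21.

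Counts were summed per population (1 sample each) and scaled to CPM. A difference is the log2 ratio of CPM + 5, with a Clopper-Pearson 95% interval of the counts given both totals, shifted by the pseudocount. Levels carry exact Poisson intervals. A gene entered a comparison at 20 CPM in either population. Each population is 1 sample, and no test was run, neither within a tissue nor over the tissues. Named members are all mitochondrial ones, complex II, the 8 most abundant, isoform groups, the 4 highest and lowest ratios per comparison, and those of the patterns counted. AA467197, Cox5b, Atp5d and Uqcrq were named after their values were seen. The members and lists were chosen with earlier results of these data known. Intervals were tested on simulated Poisson counts, the model that they assume. That test could not show how they hold where cells differ by more than counting error.

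Alternatives were TMM factors (edgeR 4.0.16), totals without ribosomal protein and mitochondrial genes, the same weight per cell, cells thinned to 1500 UMIs, filters on cells, depth, mitochondrial share or other cell types, the highest cell of each gene left out, equal cluster weights, pseudocounts of 1 and 20 and a minimum of 50 CPM. Chosen after seeing the data were clusters 6, 7, 9 and 10 left out, dividing cells left out, and equal weights over depth bins. Equal cluster weights covered only clusters with at least 5 cells in both populations. For fasted against ad libitum tumour these were clusters 7 and 11. For ad libitum tumour against spleen it was cluster 7 alone, with 16 of 46 tumour cells. Scripts ran in Python 3.11.15 with pandas 2.3.3, scipy 1.17.1, numpy 2.4.6 and matplotlib 3.10.9.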

Additional observations from a re-analysis of the deposited data

Results flagged for a closer look

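The summed mitochondrial set differed in sign between tissues when refed cells were compared with fasted cells. The log2 ratio was -0.0277 in bone marrow, 0.0192 in tumour and 0.0446 in spleen. Each rests on 1 population per group, and the difference between tissues was not tested.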

How the results depend on the processing

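Of 22 set counts, 13 kept their direction and stayed within 1.5 times under all alternatives, up to 17 each. The others are given as members in the main direction. Fasted against ad libitum, the mitochondrial count in spleen was 5 of 13 over depth bins. In bone marrow it was 1 in thinned cells, 4 with equal cluster weights and 0 over depth bins. In tumour it was 5 with the same weight per cell and 5 without dividing cells, and the nuclear count there was 34 with the same weight per cell and 28 without the highest cell. Refed against fasted, the bone marrow mitochondrial count was 6 without other cell types, 5 without clusters 6, 7, 9 and 10, 5 without dividing cells, 11 in thinned cells, 12 with equal cluster weights and 13 over depth bins. For nuclear counts between tissues, bone marrow against spleen gave 40 with the same weight per cell, 31 without dividing cells and 15 over depth bins in ad libitum cells, and 31 with totals without ribosomal protein and mitochondrial genes and 41 with equal cluster weights in fasted cells. Tumour against spleen gave 29 with TMM factors and 37 with those totals in ad libitum cells. In fasted cells it gave 74 with TMM factors, 28 with the same weight per cell, 31 in thinned cells, 35 without the highest 5% of cells, 37 with equal cluster weights, 37 without dividing cells and 21 over depth bins.

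Of the ratios of named members, 28 turned. Over depth bins these were, in bone marrow, mt-Co1 (-0.10) and Cox8a (0.039) fasted against ad libitum, mt-Co1 (0.25) and Atp5h (-0.12) refed against fasted, and Atp5g1 (-0.12), Ndufab1 (-0.0056) and Sdhb (-0.18) against spleen, and Atp5g3 (-0.011) refed against fasted in tumour. In thinned cells they were, in tumour, Ndufaf2 (0.66), Atp5j (0.14) and mt-Atp8 (-0.15) fasted against ad libitum, Sdhaf1 (0.50) refed against fasted, and Ndufab1 (-0.83), Ndufaf2 (-0.42), mt-Atp8 (0.068) and Atp5l (0.16) against ad libitum spleen. With equal cluster weights they were Cox7a2l (-0.087) and Ndufa6 (-0.20) fasted against ad libitum in tumour, mt-Co1 (0.10) and mt-Co3 (0.0443) in ad libitum and mt-Co3 (0.0442) in fasted tumour against spleen, and mt-Nd2 (-0.0023) in fasted bone marrow against spleen. With the same weight per cell they were Ndufv3 (0.029) in tumour by diet, and Ndufab1 (-0.26) and mt-Co1 (0.13) in ad libitum tumour against spleen. Without dividing cells Cox6a2 (-0.22) refed against fasted and Ndufab1 (-0.034) against spleen turned in bone marrow, as did mt-Nd6 (-0.051) against spleen without clusters 6, 7, 9 and 10. The cause of each was not tested. No paired analysis over the 3 tissues was run. Depth limits the tumour ad libitum and fasted bone marrow populations most, at 571789 and 736125 UMIs.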
